A study of Mus musculus with 6 samples.

Results

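Messenger RNA levels of 10 genes of contractile cells were described in the mouse mammary gland, with and without the chemokine CXCL14. The genes were taken by name as Acta2, Actg2, Myh11, Myl9, Mylk, Tagln, Cnn1, Des, Oxtr and Trp63, and each of the 10 was found among the 17464 gene symbols of the deposited tables. The glands came from wild-type C57BL/6 mice at postnatal day 45. Samples given recombinant mouse CXCL14 protein (3, replicates 1 to 3) were set against untreated samples (3, replicates 1 to 3). The tissue is labelled as mammary gland, although the series title speaks of endothelial cells. Dose, route and duration of the CXCL14 exposure are unknown here. No label says that each sample was a different mouse, so the p-values speak of the spread among these samples, which may be technical.

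Smooth muscle cells of vessel walls and myoepithelial cells of the mammary ducts and alveoli contract by the same machinery. Actin filaments slide along smooth muscle myosin once myosin light chain kinase has phosphorylated the regulatory light chain, and the actin-binding proteins transgelin and calponin and the intermediate filament protein desmin attach to or surround these filaments. Myoepithelial cells form the basal layer of the gland, depend on the transcription factor p63, and squeeze milk from the alveoli when oxytocin binds its receptor. Serum response factor, which binds the DNA element known as the CArG box, is a classical activator of smooth muscle contractile genes.

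Upstream sequences of 4 of the genes are shown because they differ in this element. RefSeq windows on build GRCm38.p6 were matched by symbol for 6 of the 10 genes (Acta2, Cnn1, Mylk, Des, Myl9 and Oxtr), while Tagln, Myh11, Actg2 and Trp63 had no match. The 250 bases before the annotated start were searched for the CArG box and for a CArG-like form in which 1 of the 6 middle bases is C or G. The element reads alike on both strands. Capitals mark the matches. The windows lie at chr19:34255374-34255623 on the minus strand for Acta2 and, on the plus strand, at chr2:156775214-156775463 for Myl9, chr1:75360042-75360291 for Des and chr9:22099003-22099252 for Cnn1.
Acta2: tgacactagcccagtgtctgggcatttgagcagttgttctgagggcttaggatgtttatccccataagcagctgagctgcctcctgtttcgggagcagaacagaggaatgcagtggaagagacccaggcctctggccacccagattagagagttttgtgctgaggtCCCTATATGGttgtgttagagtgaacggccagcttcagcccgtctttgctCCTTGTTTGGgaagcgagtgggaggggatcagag
Myl9: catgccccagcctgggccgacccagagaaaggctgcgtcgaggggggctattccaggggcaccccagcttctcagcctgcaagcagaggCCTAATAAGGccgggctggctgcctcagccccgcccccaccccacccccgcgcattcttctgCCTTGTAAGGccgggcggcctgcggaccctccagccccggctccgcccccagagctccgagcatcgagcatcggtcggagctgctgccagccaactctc
Des: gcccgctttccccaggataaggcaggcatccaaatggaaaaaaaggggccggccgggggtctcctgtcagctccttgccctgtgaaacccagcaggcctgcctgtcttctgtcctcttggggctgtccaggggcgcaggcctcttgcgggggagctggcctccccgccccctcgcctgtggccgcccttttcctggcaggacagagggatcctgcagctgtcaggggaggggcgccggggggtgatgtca
Cnn1: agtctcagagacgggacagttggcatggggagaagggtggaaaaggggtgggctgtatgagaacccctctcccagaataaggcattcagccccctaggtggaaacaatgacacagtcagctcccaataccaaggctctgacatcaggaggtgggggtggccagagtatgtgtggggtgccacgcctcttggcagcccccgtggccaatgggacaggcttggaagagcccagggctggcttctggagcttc
Myl9 held 1 CArG box, at positions -161 to -152 counted from the start, and 1 CArG-like match at -99 to -90. Acta2 held 2 CArG-like matches, at -84 to -75 and at -34 to -25. The windows of Des and Cnn1, and those of Mylk and Oxtr, held neither form. Over 32851 RefSeq windows of the same length, 1.47% held a CArG box and 8.59% held either form. The sequence TATAAA, searched on both strands, was in 0 of the 6 windows and in 12.4% of all windows. A match describes the letters only, and the file values carry no measurement of binding.

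Levels are given as FPKM, fragments scaled to the length of the gene and the depth of the library, so that genes of different length can be compared. Between 15245981 and 16983352 reads per library could be recovered from the deposited values. As a chi-square per gene on these reads, CXCL14 replicate 1 and untreated replicate 1 differed by 2.42, where counting noise alone gives about 1, and any of the other 14 pairings gave 25.7 to 98.8. These 2 near-alike libraries carry opposite treatment labels, and results are therefore also given without them.

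The 10 genes fell into an expressed set and a set near the limit of detection. Averaged over the 6 libraries, Tagln was highest at 39.2 FPKM, then Myl9 at 29.0 and Acta2 at 23.0 FPKM. Each of these stood above the next in 6 of 6 libraries. Mylk (5.37 FPKM), Myh11 (4.95 FPKM) and Des (4.67 FPKM) formed a second tier whose order was not the same in every library: Mylk exceeded Myh11 in 4 of 6 and Myh11 exceeded Des in 5 of 6. Actg2 (0.929 FPKM), Cnn1 (0.527 FPKM), Oxtr (0.243 FPKM) and Trp63 (0.0762 FPKM) were low. Among these, Actg2 exceeded Cnn1 in 4 of 6 libraries, Cnn1 exceeded Oxtr in 5 of 6 and Oxtr exceeded Trp63 in 6 of 6. The first 6 genes passed the filter of at least 1 FPKM in at least 3 libraries and were tested among 11516 genes. The other 4 did not pass and are given as values.

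**Figure D1:**
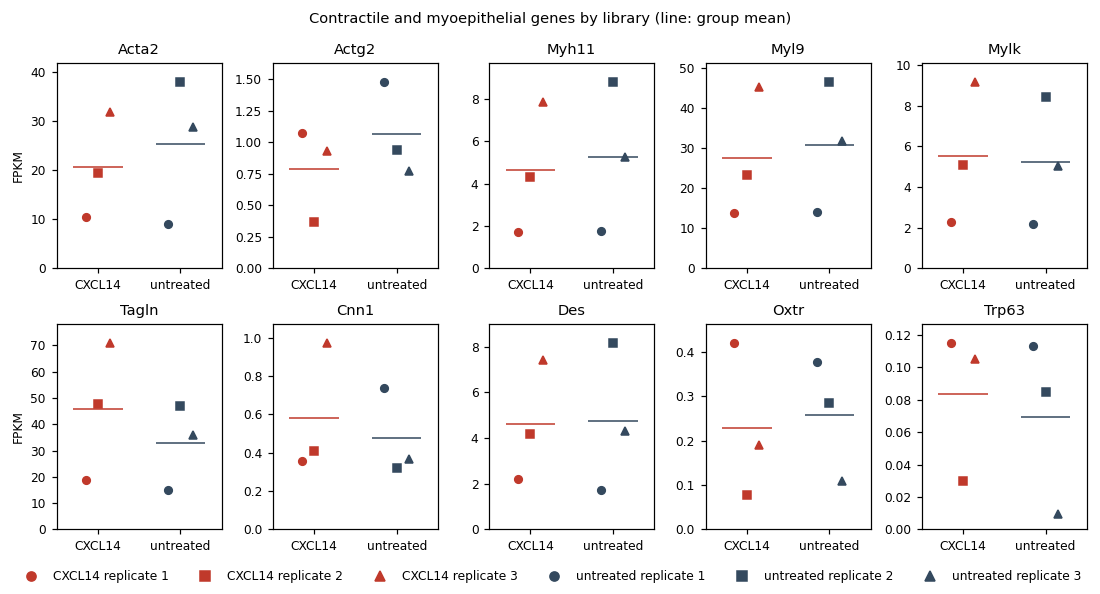
FPKM of the 10 genes (one panel each, linear axes from 0) in the CXCL14 and untreated libraries, with a symbol for each replicate number and a line at the group mean. Acta2, Myh11, Myl9, Mylk, Tagln and Des are lowest in the libraries numbered 1 of both groups, and the groups overlap in every panel.

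The smooth muscle actins differed widely in level. Acta2, which encodes smooth muscle alpha-actin, was at 10.5, 19.4 and 31.9 FPKM in CXCL14 replicates 1, 2 and 3, against 9.08, 38.0 and 28.8 FPKM in untreated replicates 1, 2 and 3. The libraries numbered 1 were lowest in both groups, untreated replicate 2 was highest, and the groups overlapped. The means were 20.6 ± 10.7 FPKM with CXCL14 and 25.3 ± 14.8 FPKM untreated (SD, n = 3 each). On the log2(FPKM + 1) scale, which understates changes of low genes, the log2 fold change was -0.20 (SE 0.58, 95% interval -1.58 to 1.17, limma-trend adjusted p = 0.896). Its sign turned without CXCL14 replicate 1 and without untreated replicate 2, with 0.19 in each case.

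Actg2, the gamma-actin best known from the gut wall, was at 1.07, 0.369 and 0.933 FPKM in CXCL14 replicates 1, 2 and 3, against 1.48, 0.941 and 0.773 FPKM in the untreated ones. It was highest in the libraries numbered 1, where Acta2 was lowest. These levels rest on 8 to 31 reads per library, 51 in all with CXCL14 and 67 untreated, and the 95% Poisson intervals of the lowest and the highest library, 0.159 to 0.727 FPKM in CXCL14 replicate 2 and 1.01 to 2.11 FPKM in untreated replicate 1, did not overlap. Such intervals cover counting error only. Actg2 and Acta2 are closely similar actin genes, and no source used here says how reads that fit both were counted, so the level of Actg2 is uncertain.

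The 3 genes of the myosin motor had like profiles. Myh11, the smooth muscle myosin heavy chain, was at 1.71, 4.29 and 7.86 FPKM in CXCL14 replicates 1, 2 and 3, against 1.74, 8.81 and 5.26 FPKM in the untreated ones. Myl9, the regulatory light chain, was at 13.7, 23.2 and 45.2 FPKM with CXCL14, against 13.9, 46.5 and 31.8 FPKM untreated. Mylk, the kinase that phosphorylates this light chain, was at 2.27, 5.10 and 9.18 FPKM with CXCL14, against 2.15, 8.44 and 5.05 FPKM untreated. In each of the 3 genes CXCL14 replicate 3 and untreated replicate 2 were the highest libraries, both libraries numbered 1 were the lowest, and the groups overlapped. The span within a group was wide, as Myh11 was 4.59-fold higher in CXCL14 replicate 3 than in CXCL14 replicate 1 and 5.07-fold higher in untreated replicate 2 than in untreated replicate 1.

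None of the 3 motor genes passed the test. The log2 fold changes were -0.13 for Myh11 (SE 0.57, limma-trend adjusted p = 0.933), -0.17 for Myl9 (SE 0.54, adjusted p = 0.908) and 0.06 for Mylk (SE 0.52, adjusted p = 0.971). The 95% intervals reached -1.50 to 1.23 for Myh11, -1.44 to 1.11 for Myl9 and -1.17 to 1.29 for Mylk, so changes of more than 2-fold either way lie within them. Without CXCL14 replicate 1 the log2 fold changes were 0.31, 0.23 and 0.48 in the same order, and without both libraries numbered 1 they were -0.19, -0.24 and 0.06. Leaving out untreated replicate 2 also turned the sign of Myh11 (0.28) and Myl9 (0.20), and leaving out CXCL14 replicate 3 or untreated replicate 1 turned that of Mylk (-0.34 and -0.36).

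Tagln had the highest log2 fold change of the 6 tested genes, and it did not pass the test. The gene, which encodes transgelin (SM22-alpha), was at 18.7, 47.7 and 70.9 FPKM in CXCL14 replicates 1, 2 and 3, against 15.1, 47.1 and 35.9 FPKM in the untreated ones. CXCL14 replicates 2 and 3 were above every untreated library, and CXCL14 replicate 1 was below 2 of the 3. The means were 45.7 ± 26.2 FPKM with CXCL14 and 32.7 ± 16.2 FPKM untreated (SD, n = 3 each). The log2 fold change was 0.42 (SE 0.57, 95% interval -0.93 to 1.78, limma-trend adjusted p = 0.773). It was 0.95 without CXCL14 replicate 1, 0.49 without both libraries numbered 1 and -0.04 without untreated replicate 1, and over 13 alternative settings the adjusted p ran from 0.244 to 0.998.

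Cnn1, which encodes the actin-binding protein calponin, was at 0.356, 0.411 and 0.972 FPKM in CXCL14 replicates 1, 2 and 3, against 0.736, 0.321 and 0.368 FPKM in the untreated ones. These values rest on 8 to 27 reads per library, with 47 reads in all with CXCL14 and 37 untreated. CXCL14 replicate 3 was highest, untreated replicate 1 the second highest and untreated replicate 2 the lowest, and the groups overlapped. The 95% Poisson intervals of these untreated libraries overlapped, at 0.443 to 1.15 FPKM in replicate 1 and 0.138 to 0.632 FPKM in replicate 2. That of the highest library, 0.640 to 1.41 FPKM in CXCL14 replicate 3, overlapped that of untreated replicate 1. It did not overlap that of untreated replicate 2, the lowest library.

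Des encodes desmin, the intermediate filament of smooth and also of skeletal muscle. It was at 2.22, 4.19 and 7.40 FPKM in CXCL14 replicates 1, 2 and 3, against 1.73, 8.16 and 4.31 FPKM in the untreated ones. The libraries numbered 1 were again lowest and the groups overlapped, and the log2 fold change came to 0.03 (SE 0.51, limma-trend adjusted p = 0.986). It was 0.37 without CXCL14 replicate 1, and it was negative without CXCL14 replicate 3 (-0.32), without untreated replicate 1 (-0.42) and without both libraries numbered 1 (-0.08). The 12 skeletal muscle markers had summed levels of 11.0 to 41.7 FPKM in the CXCL14 libraries and 23.0 to 47.7 FPKM in the untreated ones, with Myh4 at 0 in 1 untreated library. Their sum was 41.7 FPKM in CXCL14 replicate 1, where Des was lowest of the CXCL14 libraries, and 14.4 FPKM in CXCL14 replicate 3, where Des was highest. Untreated replicate 2 was the highest untreated library for both.

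The myoepithelial signs were close to 0 in each library. Oxtr, the oxytocin receptor, was at 0.420, 0.0771 and 0.191 FPKM in CXCL14 replicates 1, 2 and 3, against 0.377, 0.284 and 0.109 FPKM in the untreated ones, from 61 reads in all with CXCL14 and 67 untreated. The groups overlapped, and the order of libraries differed from that of Acta2, with the libraries numbered 1 highest. Within each group the 95% Poisson intervals of the highest and the lowest library did not overlap. They were 0.294 to 0.582 FPKM in CXCL14 replicate 1, against 0.0310 to 0.159 FPKM in CXCL14 replicate 2. In the untreated group they were 0.260 to 0.530 FPKM in replicate 1, against 0.0521 to 0.200 FPKM in replicate 3. The intervals of the libraries numbered 1 did overlap those of the middle library of their group. These middle intervals were 0.113 to 0.302 FPKM in CXCL14 replicate 3 and 0.182 to 0.422 FPKM in untreated replicate 2. Trp63, which encodes p63, was at 0.115, 0.0297 and 0.105 FPKM with CXCL14, against 0.113, 0.0850 and 0.00976 FPKM untreated. It rested on 11, 3 and 11 reads with CXCL14, against 11, 8 and 1 untreated, too few to show a difference between groups at this depth.

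The basal keratin genes were at low levels, while the integrin gene Itga6 made up most of the summed basal epithelial markers. The 10 markers, among them the keratins Krt5, Krt14 and Krt17, had summed levels of 34.5 to 55.6 FPKM with CXCL14 and 35.6 to 50.3 FPKM untreated. Itga6, which other cell types also express, averaged 30.2 FPKM with CXCL14 and 32.1 FPKM untreated. The contractile sum of the 6 tested genes divided by the basal sum was 1.42, 2.65 and 3.10 in CXCL14 replicates 1, 2 and 3, against 1.22, 3.12 and 3.12 in the untreated ones. Of the 10, 5 were tested, 0 passed, and log2 fold changes were above 0 for 3, the median being 0.30. Krt14 was at 1.83, 1.62 and 2.24 FPKM with CXCL14, against 1.79, 1.29 and 0.209 FPKM untreated, and Cdh3 was at 0 in 1 untreated library. Of the 10 contractile and myoepithelial genes, 6 passed the filter on low values, and the contractile genes Actg2 and Cnn1 did not. The genes that would mark myoepithelium (Oxtr and Trp63) were under 1 FPKM in 6 of 6 libraries. Which cell types gave the levels of the 6 genes was not tested. In bulk tissue, fewer cells of a type and less RNA per cell cannot be told apart.

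The 6 tested genes varied more among the libraries of a group than between the group means. Limma-trend called 0 of the 6, and 0 of all 11516 genes (0% higher and 0% lower), with 895 genes (7.77%) at an unadjusted p under 0.05 and 0 of the 6 among them; voom on the recovered reads also called 0 genes, with 903 (7.84%) at that unadjusted p. The groups overlapped for each of the 6, while they did not overlap for 13.1% of tested genes, 4.74% with the CXCL14 libraries higher and 8.36% with them lower. The median log2 fold change was -0.05 over the 6 and -0.06 over all tested genes. Without CXCL14 replicate 1, 597 genes passed (5.18%; 2.16% higher and 3.02% lower), with 0 of the 6 among them, whose log2 fold changes were then between 0.19 and 0.95; 29.3% of all genes and 0 of the 6 had an unadjusted p under 0.05. Without both libraries numbered 1, 15 genes passed (0.13%; 0.122% higher and 0.00868% lower), with 0 of the 6 among them, and with 19.1% of all genes and 0 of the 6 at an unadjusted p under 0.05.

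**Figure D2:**
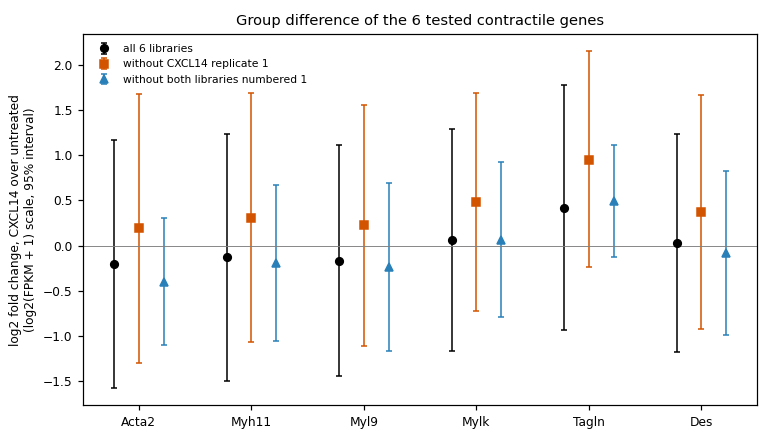
Log2 fold change of CXCL14 over untreated on the log2(FPKM + 1) scale for the 6 tested contractile genes, with 95% intervals from limma-trend, for all 6 libraries and for 2 reduced sets. Every interval includes 0, and the points without CXCL14 replicate 1 lie higher than those of all 6 libraries.

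The spread between libraries was large for these genes. The SD of log2(FPKM + 1) over the 6 libraries lay between 0.71 (Des) and 0.83 (Tagln), against a median of 0.19 over all tested genes, and 97.2% to 98.2% of tested genes had a smaller SD. For 6 of the 6 genes the lowest libraries were CXCL14 replicate 1 and untreated replicate 1, an order that 10.1% of tested genes had. Summed over the 6 genes, the level was 49.1, 104 and 172 FPKM in CXCL14 replicates 1, 2 and 3, against 43.7, 157 and 111 FPKM in the untreated ones, a 3.95-fold span.

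Markers of vessel cells were also lowest in the libraries numbered 1. The 8 pericyte markers, among them Rgs5, Pdgfrb and Notch3, summed to 33.7, 72.2 and 125 FPKM in CXCL14 replicates 1, 2 and 3, against 34.7, 131 and 61.5 FPKM in the untreated ones. None of the 8 was at 0 in any library, and in 7 of the 7 tested the libraries numbered 1 were lowest, as in 9 of 10 blood endothelial markers. The contractile sum divided by the pericyte sum was 1.46, 1.44 and 1.38 with CXCL14, against 1.26, 1.20 and 1.81 untreated, a narrower span than that of either sum. Endothelial markers summed to 468, 916 and 1468 FPKM with CXCL14, against 447, 931 and 718 FPKM untreated, and the contractile sum divided by theirs was 0.105, 0.113 and 0.117 with CXCL14, against 0.0977, 0.169 and 0.155 untreated. The span of this ratio, 1.73-fold, was likewise narrower than that of either sum, and that of the pericyte ratio was 1.51-fold. The part of these cells in the levels of the contractile genes was not tested.

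**Figure D3:**
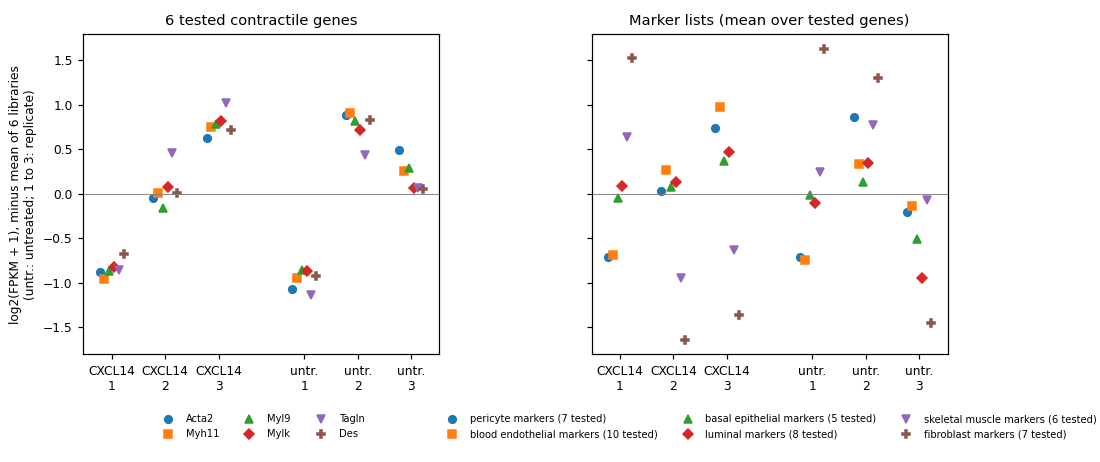
Log2(FPKM + 1) minus the mean of the 6 libraries, by library, for the 6 tested contractile genes (left) and for the mean over the tested genes of 6 marker lists (right). The contractile genes, pericyte markers and endothelial markers are lowest in the libraries numbered 1, while fibroblast markers are high in those libraries and in untreated replicate 2.

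Epithelial, fibroblast and skeletal muscle markers had other orders of libraries. The 8 luminal epithelial markers summed to 243 to 313 FPKM with CXCL14 and 117 to 355 FPKM untreated, with the lowest sum in untreated replicate 3, and in 0 of the 8 were the libraries numbered 1 the lowest. The 7 fibroblast markers summed to 684, 59.2 and 78.4 FPKM in CXCL14 replicates 1, 2 and 3, against 726, 597 and 68.4 FPKM in the untreated ones. They were highest in the libraries where Acta2 was lowest, but also high in untreated replicate 2, where Acta2 was highest. White adipocyte markers (8) summed to 967 to 3051 FPKM with CXCL14 and 896 to 1914 FPKM untreated, with the libraries numbered 1 lowest in 6 of 7 tested. Fabp4 made up nearly all of this sum, at 950 to 2968 FPKM with CXCL14 and 880 to 1874 FPKM untreated. The next most abundant, Cfd, averaged 26.4 FPKM with CXCL14 and 17.2 FPKM untreated, and Adipoq 6.20 and 4.18 FPKM. Leukocyte markers (8) summed to 1122 to 1362 FPKM with CXCL14 and 1264 to 1406 FPKM untreated. Reticular cells of lymph node stroma can also hold Acta2 and Des. The 5 markers of this stroma summed to 24.6, 83.3 and 103 FPKM with CXCL14, against 21.9, 56.6 and 44.7 FPKM untreated. Most of the sum came from the chemokine gene Ccl21a, and the libraries numbered 1 were lowest in 2 of the 4 tested. Pdpn had another order, at 3.04, 0.132 and 0.222 FPKM with CXCL14, against 3.32, 1.70 and 0.390 FPKM untreated. Keratinocyte markers (5 of 6 listed) summed to at most 3.54 FPKM. Of the tested genes of these lists and of the pericyte, endothelial, basal and skeletal muscle lists, 0 passed with all 6 libraries. Without CXCL14 replicate 1 the luminal gene Elf5 and the neutrophil gene S100a8 were called higher, and the skeletal muscle gene Tnni2 and the T cell genes Cd3e and Cd8b1 lower. Without both libraries numbered 1, S100a8 was called higher. Their part in the results on the contractile genes was not tested.

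The genes whose profile over the 6 libraries lay closest to the mean centred profile of the 8 contractile genes were Atp1b2, Cav2, Clic5, Afap1l1, Cavin2 and Ehd2. Closeness was measured as the root-mean-square distance of centred log2(FPKM + 1) values over 6 libraries, and ran from 0.030 for Atp1b2 to 0.086 for Ehd2. These 6 are the nearest of many genes with a like profile. Cavin2 was at 38.8, 61.1 and 104 FPKM with CXCL14, against 38.6, 87.4 and 59.4 FPKM untreated. The distance was 0.161 for Mylk, 0.164 for Des, 0.196 for Myl9, 0.238 for Myh11, 0.284 for Acta2 and 0.337 for Tagln, and 0.525 to 0.653 for Cnn1, Trp63, Oxtr and Actg2. Between 92 tested genes (for Mylk) and 809 (for Tagln) lay closer to the profile than these 6 expressed members did, and 4232 or more lay closer than Cnn1, Trp63, Oxtr or Actg2. Because the profile averages low and expressed genes, its range is smaller than that of Acta2 itself.

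The within-library ratio of Tagln to 4 of the 5 other tested contractile genes was higher in all CXCL14 than in all untreated samples. In a design of this size no outcome of the exact test could reach a p under 0.05, so that test cannot decide on the difference. The ratio of Tagln to Acta2 was 1.78, 2.46 and 2.22 in CXCL14 replicates 1, 2 and 3, against 1.66, 1.24 and 1.25 in the untreated ones, and the ratio of Tagln to Myl9 was 1.36, 2.06 and 1.57 with CXCL14, against 1.09, 1.01 and 1.13 untreated. The groups did not overlap in either ratio. For Tagln to Acta2, CXCL14 replicate 1 and untreated replicate 1 lay close together. The log2 ratio of Tagln to Acta2 averaged 1.09 ± 0.24 with CXCL14 and 0.45 ± 0.24 untreated (SD, n = 3 each), a difference of 0.64 (exact permutation test, two-sided, p = 0.1, the smallest this design allows, and 0.375 adjusted over the 15 pairs). The groups did not overlap for 4 of the 5 pairs with Tagln (Acta2, Myh11, Mylk and Myl9), and for 0 of the 10 pairs without it. The gap was narrow for Acta2, Myh11 and Mylk. For Tagln to Myh11, the lowest CXCL14 ratio was 9.02 (replicate 3) and the highest untreated ratio 8.68 (replicate 1). For Tagln to Mylk they were 7.72 (CXCL14 replicate 3) and 7.12 (untreated replicate 3). Counting error of the ratios was not estimated. Against every other tested gene, the ratio of Tagln did not overlap for 0.313% of genes and was higher with CXCL14 for 0.165%. Most tested genes lack the wide spread of Tagln between libraries, and the 5 pairs all share Tagln. Shares over all genes are therefore not a like measure for these pairs. The like shares without overlap were 0.704% for Acta2, 0.539% for Myh11, 0.53% for Mylk, 0.243% for Des and 1.49% for Myl9, of which ratios higher with CXCL14 made up 0.00869% of genes for Mylk and for Des and 0% for the other 3. The difference for Tagln to Acta2 was 0.77 without CXCL14 replicate 1 and 0.91 without both libraries numbered 1. These ratios were examined after the values had been seen, and the unequal differences between genes that they describe were not established by a test. The ratios do not say which of the genes differed.

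**Figure D4:**
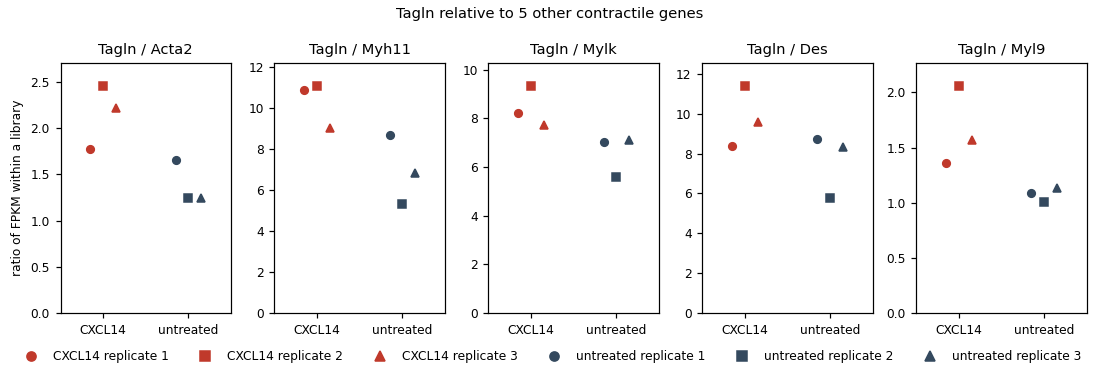
Ratio of Tagln FPKM to the FPKM of 5 other contractile genes within each library (linear axes from 0), for CXCL14 and untreated libraries, with a symbol for each replicate number. For Acta2, Myh11, Mylk and Myl9 the 3 CXCL14 libraries lie above the 3 untreated ones, and for Des the groups overlap.

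Other genes of the contractile apparatus did not pass the test. Of 15 partners, which include tropomyosins, caldesmon, alpha-actinin and vinculin, 14 were tested and 0 passed. Their log2 fold changes were above 0 for 6, the median being -0.03. The libraries numbered 1 were lowest in 10 of the 14. The most abundant partners were Myl6, the essential myosin light chain found in most cells, at 476 FPKM with CXCL14 and 486 FPKM untreated (means), the actin crosslinker Flna at 103 and 118 FPKM, and Csrp1, a LIM-domain protein of actin filaments, at 80.8 and 67.0 FPKM in the same order of groups. Lmod1, which nucleates smooth muscle actin filaments, was at 0.375, 0.769 and 1.39 FPKM with CXCL14, against 0.208, 1.24 and 1.09 FPKM untreated.

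Signalling genes of contraction did not pass either. Of 16 listed genes 12 were tested and 0 passed, with 5 positive and a median log2 fold change of -0.03. Rhoa, a small GTPase that promotes smooth muscle contraction, averaged 154 FPKM with CXCL14 and 165 FPKM untreated, and Ppp1cb, the catalytic subunit of myosin phosphatase, 46.2 and 44.5 FPKM in the same order of groups. The Rhoa groups did not overlap, with the 3 CXCL14 libraries lower, as in 8.36% of all tested genes. The log2 fold change of Rhoa was -0.10 (SE 0.08, limma-trend adjusted p = 0.662). Of 9 other receptors for contractile agonists 4 were tested and 0 passed, with a median of 0.12. Ednra, the endothelin A receptor, was at 0.599, 1.45 and 2.55 FPKM with CXCL14, against 0.397, 3.34 and 0.969 FPKM untreated, with the libraries numbered 1 lowest as for the contractile genes. Ednrb averaged 6.68 FPKM with CXCL14 and 5.26 FPKM untreated, and the angiotensin receptor gene Agtr1a 4.16 and 5.14 FPKM.

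Regulators of contractile gene transcription did not pass the test either. Of 8 listed genes 7 were tested, with 2 positive and a median log2 fold change of -0.07. Srf averaged 24.0 FPKM with CXCL14 and 26.6 FPKM untreated. Its cofactor gene Mrtfa was at 37.2, 27.0 and 25.6 FPKM in CXCL14 replicates 1, 2 and 3, against 36.7, 33.7 and 36.5 FPKM in the untreated ones, and CXCL14 replicates 2 and 3 were lower than the other libraries. Its log2 fold change came to -0.26 (SE 0.15, limma-trend adjusted p = 0.585), to -0.42 without CXCL14 replicate 1 (limma-trend adjusted p = 0.0533) and to -0.40 without both libraries numbered 1 (limma-trend adjusted p = 0.19). Elk4, an ETS partner of Srf, averaged 27.2 and 24.2 FPKM in the same order of groups. Myocd, the cofactor restricted to cardiac and smooth muscle, was listed at 0.0231, 0.0873 and 0.105 FPKM with CXCL14, against 0.00755, 0.0234 and 0.0789 FPKM untreated, and was not tested. In the lists of partners, signalling genes, receptors and regulators, 0 genes passed without CXCL14 replicate 1 or without both libraries numbered 1.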

How the data were processed

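RNA was sequenced from 6 mammary gland samples, 3 given CXCL14 and 3 untreated, grouped by their treatment labels. The authors deposited 1 FPKM value per gene symbol and library, per the file headers. Per the submitters' processing notes, the tools included HTSeq 0.6.0, HISAT2 2 and Bowtie2 2.2.3, and the build was mm8, without their roles. No source used here gives the gene lengths, the strand setting or the handling of reads shared by similar, overlapping or antisense genes. Because the build differs from GRCm38.p6, gene coordinates are given only for RefSeq sequences.

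Genes with at least 1 FPKM in at least 3 libraries (11516) were tested with limma-trend (limma 3.58.1, R 4.3.3) on log2(FPKM + 1), two-sided, with Benjamini-Hochberg adjustment over all of them and a call at an adjusted p under 0.05. The code was tested on simulated data. Whole reads were recovered from the steps of the FPKM values for 17464 genes, within 0.004 reads, and used for depth, Poisson intervals and voom. Exact permutation tests used scipy 1.17.1.

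The members and lists were chosen with earlier results of these data known. Named genes were taken from the 10 members, the 3 most abundant tested genes of each list and the 6 genes nearest in profile; 1 gene of the signalling list is not reported here by name. Krt14, Cdh3, Elf5, S100a8, Tnni2, Cd3e, Cd8b1, Lmod1, Myocd, Myh4, Krt5, Krt17, Notch3 and the ratios were named after their values were seen. For the lists of partners, signalling, receptors, regulators and cell types, counts and medians are given without a test of the list. Alternatives were 2 other pseudocounts (0.1 and 0.5), no filter, median-ratio scaling, voom, a replicate block, each library left out, and both libraries numbered 1 left out.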

Additional observations from a re-analysis of the deposited data

How the results depend on the processing

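No contractile gene passed the test under any of the 13 alternatives. The count of all genes called was 0 with all 6 libraries and between 0 and 597 with single libraries left out, the 597 without CXCL14 replicate 1. It was 15 without both libraries numbered 1. The median log2 fold change of the 6 tested genes was -0.05, and between -0.53 and 0.36 with single libraries left out. Of 78 log2 fold changes under alternatives 66 kept their sign and 12 did not, all 12 where libraries were left out. Without single libraries the range was -0.79 to 0.19 for Acta2, -0.64 to 0.31 for Myh11, -0.64 to 0.23 for Myl9, -0.36 to 0.48 for Mylk, -0.42 to 0.45 for Des and -0.04 to 0.95 for Tagln, and Des was at -0.08 without both libraries numbered 1. Fewer libraries also change the estimate of the spread.

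Replicate numbers did not pair the libraries throughout: deviations from the group means correlated at 0.69 for number 1, -0.30 for number 2 and 0.06 for number 3. Across unlike numbers, CXCL14 replicate 2 correlated with untreated replicate 3 at 0.60. Likewise, CXCL14 replicate 3 correlated with untreated replicate 2 at 0.56. The cause of these likenesses was not tested. With the replicate block 0 genes were called, and Tagln had a log2 fold change of 0.42 with SE 0.20 (limma-trend adjusted p = 0.653). Chosen after seeing the data, the Tagln to Acta2 log2 ratio differed by 0.64 with all libraries and 0.91 without both libraries numbered 1, where the cause was not tested. Depth limits Actg2, Cnn1, Oxtr and Trp63, which rest on 1 to 36 reads per library.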
